A study of Mus musculus with 48 samples.

Results

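A set of nuclear receptor genes that read the same DNA element were followed across the mouse heart libraries: Nr1d1 and Nr1d2, which encode the repressors REV-ERBα and REV-ERBβ, and Rora and Rorb, which encode the activators RORα and RORβ. The members were the 4 entries of the count table, out of 53700 genes, whose Ensembl identifier without its version maps to these symbols (ENSMUSG00000020889, ENSMUSG00000021775, ENSMUSG00000032238 and ENSMUSG00000036192). All 4 passed the filter on low counts, which kept 16623 genes. RNA-seq had been run on both ventricles of 48 male C57BL/6 mice in 8 groups of 6, which form 4 lines of Cre carriers and littermates.

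BMAL1 FLOX mice were Bmal1 flox/flox without Cre, and CBK mice were Bmal1 flox/flox with MHCαCre+/-. E4BP4 FLOX mice were E4bp4 flox/flox without Cre, and CEK mice were E4bp4 flox/flox with MHCαCre+/-. BMAL1/E4BP4 FLOX mice carried both floxed genes without Cre, and CBK/CEK mice carried both with MHCαCre+/-. Cre CON mice had MHCαCre+/- and no floxed gene, and WT mice had neither. The MHCα (Myh6) promoter drives Cre in cardiomyocytes, whereas the RNA came from whole ventricle, so transcripts of cells without Cre were counted too. Neither age nor the hour of tissue collection was given in the sources used here. In bulk tissue, fewer cells of a type and less RNA per cell cannot be told apart.

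REV-ERBs and RORs bind the ROR response element (RORE), where RORs activate transcription and REV-ERBs recruit the NCoR-HDAC3 corepressor. CLOCK and BMAL1 (gene Arntl) drive Nr1d1 and Nr1d2 through E-boxes, and the REV-ERB proteins in turn repress Arntl, which closes the second loop of the circadian clock. In the mouse heart Nr1d1, Nr1d2 and Rora are known as clock genes, while Rorb is known from retina and brain. E4BP4 (gene Nfil3) is a repressor of D-box promoters and is itself a known RORE target.

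The upstream sequences of both REV-ERB genes are shown because both transcripts were lower in CBK hearts. Each is the 250 bases before the start site on RefSeq build GRCm38.p6, printed 5′ to 3′ on the minus strand, from chr11:98775378-98775627 for Nr1d1 and chr14:18239107-18239356 for Nr1d2. Capitals mark the matches found.
Nr1d1: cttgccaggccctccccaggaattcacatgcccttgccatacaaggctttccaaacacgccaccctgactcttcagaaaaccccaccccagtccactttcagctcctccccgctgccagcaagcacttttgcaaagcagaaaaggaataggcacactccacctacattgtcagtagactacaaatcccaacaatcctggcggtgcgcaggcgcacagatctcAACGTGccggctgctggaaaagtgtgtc
Nr1d2: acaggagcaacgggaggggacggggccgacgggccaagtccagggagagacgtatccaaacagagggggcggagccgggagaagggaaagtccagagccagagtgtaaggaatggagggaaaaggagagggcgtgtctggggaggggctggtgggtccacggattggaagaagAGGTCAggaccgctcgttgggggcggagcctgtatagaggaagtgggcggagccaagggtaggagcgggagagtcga
Both strands were searched for the E-box CACGTG, the related CACGTT, the receptor core site AGGTCA, the RORE cores TAGGTCA and TGGGTCA and the D-boxes TTATGTAA and TTATGCAA. TAGGTCA contains the core site. In the Nr1d1 window the match was CACGTT on the opposite strand, at bases -28 to -23 from the start site, a motif held by 3.85% of 32851 promoters of the same length. The Nr1d2 window held the core site at -77 to -72, which is in 14.0% of promoters. CACGTG was in neither of these windows and in 6.02% of promoters. The Rora window (chr9:68653536-68653785, plus strand) held no match, and of the 2 Rorb windows 1 held CACGTT at -234 to -229. The remaining motifs were in none of the 5 windows and in 2.23% (TAGGTCA), 3.24% (TGGGTCA), 0.819% (TTATGTAA) and 0.694% (TTATGCAA) of promoters.

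Libraries held 13128833 to 28407868 assigned counts, except WT replicate 1 with 126338949. For their composition 5 libraries were left out in an alternative fit, a choice made after the values were seen: CBK replicates 3 and 5, CEK replicates 4 and 5 and BMAL1/E4BP4 FLOX replicate 6. They are not all of the libraries with such shares. In BMAL1/E4BP4 FLOX replicate 6 the unnamed gene ENSMUSG00000119584 took 34.8% of the counts and mitochondrial transcripts 14.8%, and in CBK replicate 5 mitochondrial transcripts took 9.55%. CEK replicate 6, at 24.4% and 15.9%, went further in both than CEK replicate 5, at 16.8% and 18.4%, so a fit without it as well was added. By group, the share of ENSMUSG00000119584 was 6.18% to 15.3% in E4BP4 FLOX and 4.58% to 33.4% in CEK, against 0.534% to 1.19% in WT. Cardiomyocyte markers were detected in every group, 7 of 7, with sums between 47638 and 91527 CPM (reads scaled to library size). All 8 neuron and retina markers had means under 0.1 CPM over the 48 libraries. Nfil3 was lower in both groups with Cre and floxed E4bp4, at 0.481 to 0.718 CPM in CEK against 6.51 to 10.5 in E4BP4 FLOX and 0.991 to 2.82 in CBK/CEK against 7 to 11.9 in BMAL1/E4BP4 FLOX. Whole-gene counts of Arntl were higher in libraries labelled CBK, at 5.79 to 12.6 CPM against 0.580 to 1.5, and in CBK/CEK, at 10.9 to 13.3 against 0.525 to 1.38. Such counts sum over all exons and do not check whether the floxed part of Arntl was removed, so the group names below are the labels'.

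**Figure D1:**
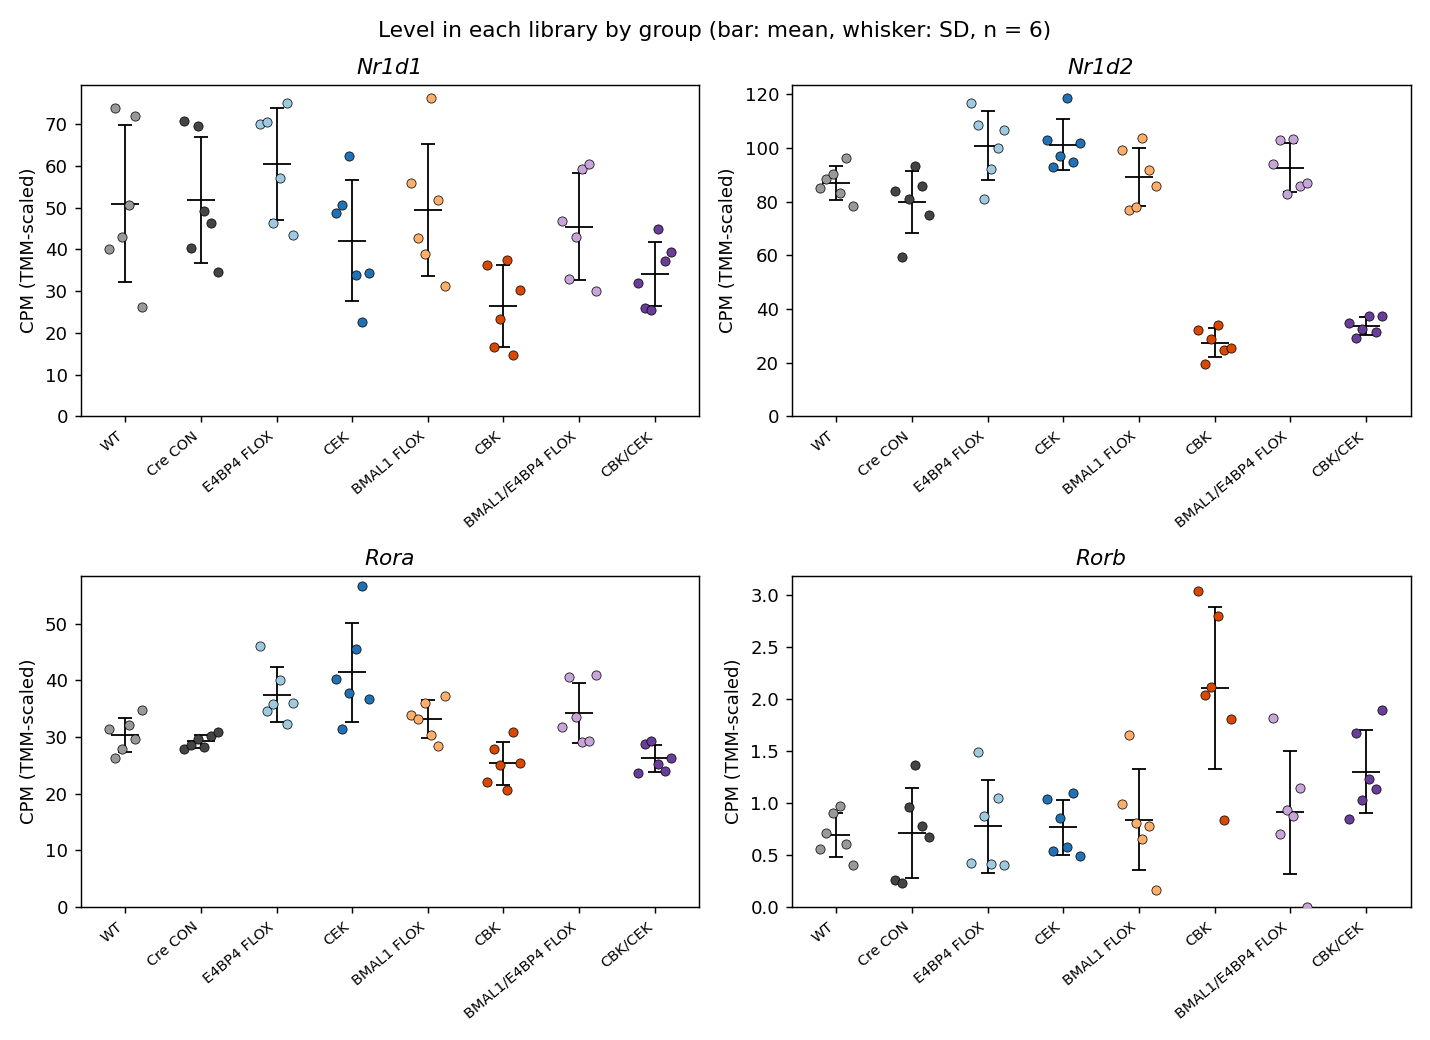
Level of Nr1d1, Nr1d2, Rora and Rorb (y axis, CPM on TMM-scaled library sizes) in each of 48 libraries (points) by group (x axis), with the mean as a bar and the SD as a whisker. The Nr1d2 points of CBK and CBK/CEK lie between 19.6 and 37.4 CPM, below every other library, whereas the Nr1d1, Rora and Rorb points of these groups overlap those of other groups.

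Per kilobase of exon, the REV-ERB genes were the more abundant members. In the 4 groups without Cre, mean levels were 14.8 to 19.6 CPM per kb for Nr1d1 and 16.1 to 18.7 for Nr1d2. Rora stood at 2.32 to 2.87 CPM per kb and Rorb at 0.0624 to 0.0824. Rorb was at the edge of detection, with 0 to 90 reads per library and 0 reads in BMAL1/E4BP4 FLOX replicate 6. Exon lengths were 3077 bp (Nr1d1), 5409 bp (Nr1d2), 13071 bp (Rora) and 11076 bp (Rorb) in GENCODE M21.

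Ordered by mean CPM, Nr1d2 and Rora ran the same way through the 8 groups: CEK, E4BP4 FLOX, BMAL1/E4BP4 FLOX, BMAL1 FLOX, WT, Cre CON, CBK/CEK and CBK. Nr1d1 ran from E4BP4 FLOX through Cre CON, WT, BMAL1 FLOX, BMAL1/E4BP4 FLOX and CEK to CBK/CEK and CBK. Rorb had CBK and CBK/CEK highest, followed by BMAL1/E4BP4 FLOX, BMAL1 FLOX, E4BP4 FLOX, CEK, Cre CON and WT. Neighbours in these orders overlapped in every case but 1, the step of Nr1d2 from Cre CON (59.4 to 93.3 CPM) to CBK/CEK (29.1 to 37.4 CPM). The coefficient of variation among animals of a group was 22.3% to 37.1% for Nr1d1, 7.09% to 19.4% for Nr1d2, 4.08% to 21.2% for Rora and 30.8% to 64.9% for Rorb.

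In hearts labelled CBK, Nr1d1, Nr1d2 and Rora transcripts fell and Rorb rose against BMAL1 FLOX littermates. Of the 3 that fell, Nr1d2 had the largest fold change and Rora the smallest. The question put by this line is what loss of cardiomyocyte BMAL1 does to ventricular transcripts. Of the 4 members, 4 were called at an edgeR adjusted p under 0.05, beside 8.4% of all genes tested.

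Nr1d2, the REV-ERBβ gene, had a lowest, median and highest level of 76.8, 88.9 and 104 CPM in BMAL1 FLOX. In CBK these were 19.6, 27.2 and 34.2 CPM. Every CBK library was below every littermate, and 2.15% of all genes showed such a downward separation. Nr1d2 fell by 1.70 on the log2 scale (SE 0.11, n = 6 per group, edgeR adjusted p = 7.21e-18), a drop of 69.1%.

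Nr1d1, the REV-ERBα gene, spanned 31.3 to 76.3 CPM in BMAL1 FLOX with a median of 47.2. Its CBK levels were 14.6, 26.8 and 37.5 CPM at the lowest, median and highest. The ranges overlapped: CBK replicates 1 and 4 lay above the lowest littermate, BMAL1 FLOX replicate 6, and replicates 2 and 5 were the lowest for Nr1d1 and also for Nr1d2. Nr1d1 changed by -0.90 on the log2 scale (SE 0.26, edgeR adjusted p = 0.0190), with a 95% interval of -1.41 to -0.39. Without the 5 libraries of outlying composition it was -0.70 (edgeR adjusted p = 0.130), and the call was also lost without BMAL1 FLOX replicate 4 or CBK replicate 2, 3 or 5, at -1.03 to -0.74 over the single omissions. Nr1d1 moved with the mitochondrial share of a library, as given below for the deviations within groups, and the part of this in the fall was not tested.

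Rora, whose product RORα activates Arntl, stood at 28.4, 33.5 and 37.2 CPM (lowest, median, highest) in BMAL1 FLOX. In CBK it stood at 20.7, 25.2 and 30.9 CPM. In CBK 5 of 6 libraries were below every littermate, and replicate 5 lay within the littermates' range. Rora fell by 0.39 on the log2 scale (SE 0.11, edgeR adjusted p = 0.0119), or 23.6%, and a fit of the 12 libraries of the line alone gave -0.38 with an edgeR adjusted p of 0.0625. The 5 genes listed here as mural cell markers (Rgs5, Pdgfrb, Kcnj8, Abcc9 and Myh11) summed to 431 to 738 CPM in CBK. In BMAL1 FLOX they summed to 727 to 790 CPM. Sums of 5 endothelial markers were 327 to 527 CPM in CBK against 460 to 534. In each of these lists 1 of 5 genes was called lower in CBK, beside 4.35% of all genes. The part of these marker differences in the Rora result was not tested.

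Rorb had 4 to 39 reads in the BMAL1 FLOX libraries and 20 to 90 in CBK. On the CPM scale the lowest, median and highest were 0.166, 0.794 and 1.66 against 0.838, 2.08 and 3.04. In CBK 5 of 6 libraries exceeded the highest littermate, and replicate 5, which is 1 of those of outlying composition, lay within the littermates' range. The log2 fold change was 1.32 (SE 0.42, edgeR adjusted p = 0.0385), with an interval of 0.49 to 2.15. The call was lost on omitting any single library but BMAL1 FLOX replicate 2 or CBK replicates 5 or 6 (edgeR adjusted p up to 0.109). It was also lost with no filter on low counts (edgeR adjusted p = 0.067) and in the fit of this line alone (edgeR adjusted p = 0.0766).

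**Figure D2:**
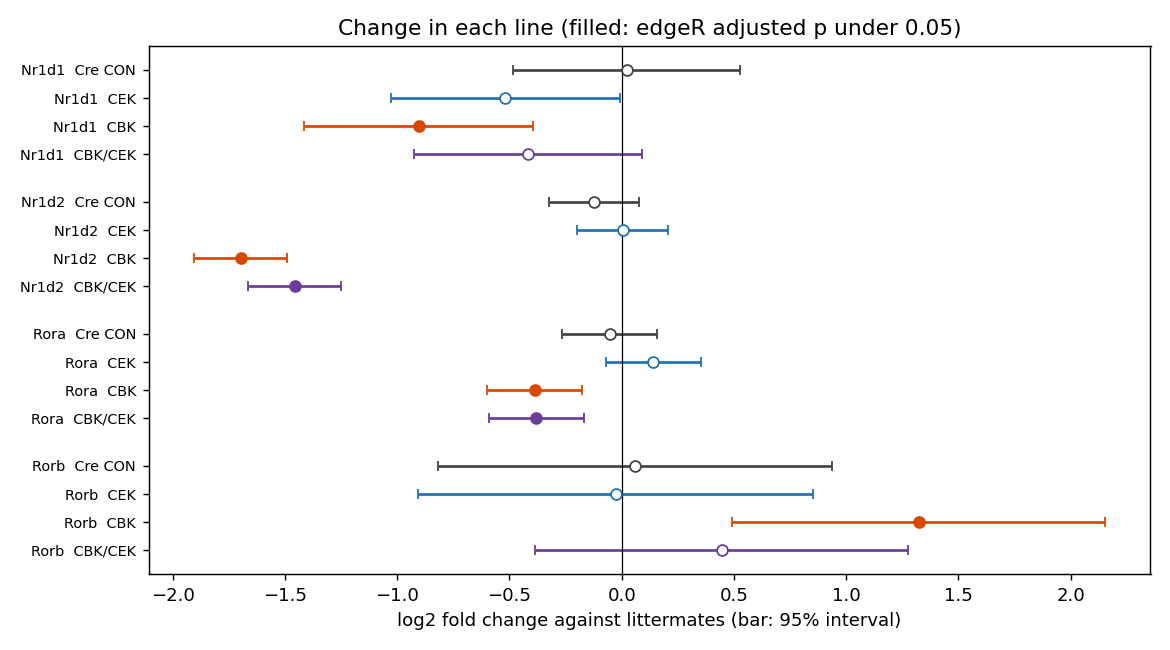
Log2 fold change (x axis, bars are 95% intervals) of each member in each of 4 lines against its littermates (y axis, 6 libraries per group). Filled points passed an edgeR adjusted p of 0.05: all 4 members in CBK and Nr1d2 and Rora in CBK/CEK, while the Cre CON points lie between -0.12 and 0.06.

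In CBK/CEK hearts, which carry both floxed genes with Cre, Nr1d2 and Rora fell as well, and Nr1d1 and Rorb did not pass the test. Of the 4 members, 2 were called, beside 5.87% of all genes. Nr1d2 was at 82.8, 90.5 and 103 CPM (lowest, median, highest) in BMAL1/E4BP4 FLOX and at 29.1, 33.8 and 37.4 in CBK/CEK. The groups did not overlap, which held downward for 1.61% of all genes, and Nr1d2 fell by 1.46 on the log2 scale (SE 0.11, edgeR adjusted p = 2.37e-15), or 63.6%. Rora went from 29.2, 32.7 and 41.0 CPM to 23.7, 25.7 and 29.4 CPM. These ranges met only at their ends, and Rora fell by 0.38 (SE 0.11, edgeR adjusted p = 0.0207). Leaving out BMAL1/E4BP4 FLOX replicate 2 or 6 or CBK/CEK replicate 1 or 5 ended the Rora call (edgeR adjusted p up to 0.0879), with log2 fold changes of -0.42 to -0.32 over the single omissions.

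Nr1d1 in this line was at 30.1, 44.8 and 60.5 CPM without Cre and at 25.5, 34.6 and 44.8 with it. The ranges overlapped and the log2 fold change of -0.42 (SE 0.26) had an edgeR adjusted p of 0.464. Rorb was at 0, 0.905 and 1.82 CPM against 0.849, 1.18 and 1.89, a log2 difference of 0.45 (edgeR adjusted p = 0.695, SE 0.42). The difference between the CBK/CEK and CBK effects was tested directly and passed for none of the members by edgeR or DESeq2, beside 0.162% of genes, and none had an unadjusted p under 0.05. It was 0.49 on the log2 scale for Nr1d1 (95% interval -0.23 to 1.2), 0.24 for Nr1d2 (-0.05 to 0.53), 0.01 for Rora (-0.29 to 0.31) and -0.88 for Rorb (-2.05 to 0.29). The intervals of Nr1d1 and Rorb are the widest, and the Nr1d1 difference was 0.19 without the 5 libraries of outlying composition. The Rorb change in CBK/CEK was then 0.25.

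In CEK hearts none of the receptors passed the test. In all, 0 of 4 were called by edgeR or by DESeq2, beside 0.307% of genes, and 0 had an unadjusted p under 0.05. Nr1d2 was at 81.0, 103 and 117 CPM in E4BP4 FLOX and at 92.8, 99.4 and 119 in CEK, and Rora at 32.4, 36.0 and 46.1 against 31.5, 39.0 and 56.7. Both pairs overlapped almost fully, apart from CEK replicate 5, the highest Rora level of all 48 libraries and 1 of the 5 of outlying composition. Nr1d1 had the lowest p of the 4 (unadjusted p = 0.0524, edgeR adjusted p = 0.447), with 43.5, 63.5 and 75.0 CPM against 22.6, 41.5 and 62.4 CPM and a log2 fold change of -0.52 (SE 0.26). This was -0.31 without the 5 and -0.16 without CEK replicate 6 as well. Rorb was at 0.407, 0.650 and 1.49 CPM against 0.491, 0.715 and 1.10 CPM.

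Cre alone left the members near their WT levels. Log2 fold changes in Cre CON were 0.02 for Nr1d1, -0.12 for Nr1d2, -0.05 for Rora and 0.06 for Rorb, with 0 of 4 called by edgeR (adjusted p of 1 for each), 0 at an unadjusted p under 0.05, and 0.018% of all genes called. DESeq2 called none of the 3 members for which it gave an adjusted p. Nr1d1 spanned 26.2, 46.8 and 74.0 CPM in WT and 34.5, 47.7 and 70.7 in Cre CON, with much overlap. Nr1d2 was at 78.6, 86.7 and 96.3 CPM against 59.4, 82.5 and 93.3, and Rora at 26.4, 30.5 and 34.8 against 27.9, 29.2 and 30.9. Rorb was at 0.405, 0.661 and 0.967 CPM in WT and 0.231, 0.728 and 1.36 in Cre CON, which also overlapped.

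Set against Cre alone or against CEK in the same fit, the effect of the Bmal1 lines on Nr1d2 stood apart. These contrasts reuse libraries, so each is given with its own values. The Nr1d2 effect in CBK was lower than in Cre CON by a log2 difference of -1.57 (SE 0.15, edgeR adjusted p = 4.09e-11, 2.47% of genes called) and lower than in CEK by -1.70 (edgeR adjusted p = 1.65e-12, 3.19% of genes). For CBK/CEK the difference was -1.33 from Cre CON (edgeR adjusted p = 1.42e-08, 1.34% of genes) and -1.46 from CEK (edgeR adjusted p = 7.14e-10, 2.03% of genes). Nr1d2 was the only member called in 3 of these 4 contrasts.

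The Rora effect in CBK was lower than in CEK by -0.53 (SE 0.15, edgeR adjusted p = 0.0369), but this call was lost without the 5 libraries of outlying composition, at -0.40 (edgeR adjusted p = 0.137), and without CEK replicate 6 as well, at -0.41 (edgeR adjusted p = 0.191). Between CBK and Cre CON the differences of -0.93 for Nr1d1 (unadjusted p = 0.0151, edgeR adjusted p = 0.272), -0.33 for Rora (edgeR adjusted p = 0.404) and 1.26 for Rorb (edgeR adjusted p = 0.460) did not pass. CEK minus Cre CON was called for none of the members by edgeR or DESeq2, beside 0.00602% of genes, and none had an unadjusted p under 0.05. How far CBK/CEK departed from the CBK and CEK effects added together, with Cre counted once, was also not called for any member by either tool, beside 0.012% of genes, and none had an unadjusted p under 0.05. It was 1.03 for Nr1d1 (unadjusted p = 0.0538, edgeR adjusted p = 0.831), the lowest p of the 4, but 0.53 without the 5 libraries of outlying composition and 0.38 without CEK replicate 6 as well.

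The floxed littermates were compared with WT as well, in 3 comparisons that share WT. None of the members was called by edgeR or DESeq2 in any of them, beside 0.265% of genes in BMAL1 FLOX, 0.0% in E4BP4 FLOX and 0.283% in BMAL1/E4BP4 FLOX. For E4BP4 FLOX the 0 genes of edgeR stand beside 20 called by DESeq2 and 1045 at an unadjusted p under 0.05. Among the members, an unadjusted p under 0.05 was found for Rora and Nr1d2 in E4BP4 FLOX, with log2 fold changes of 0.30 (unadjusted p = 0.00691, edgeR adjusted p = 0.523) and 0.21 (unadjusted p = 0.0416, edgeR adjusted p = 0.778). ENSMUSG00000119584 took 6.18% to 15.3% of the counts in the E4BP4 FLOX libraries and 0.534% to 1.19% in WT. The part of this difference in the Rora and Nr1d2 values was not tested. In BMAL1 FLOX the members lay between -0.04 and 0.29, and in BMAL1/E4BP4 FLOX between -0.16 and 0.47.

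The ratios that hold Nr1d2 followed its fall in CBK and CBK/CEK hearts. Per library, the ratio of Nr1d2 to Rora CPM had a median of 2.62 in BMAL1 FLOX (2.17 to 3.41) and 1.08 in CBK (0.70 to 1.65). It was 2.74 (2.12 to 3.54) in BMAL1/E4BP4 FLOX and 1.36 (1.01 to 1.49) in CBK/CEK. Neither pair of ranges overlapped. The ratio of Nr1d1 to Nr1d2 CPM was 0.56 (0.36 to 0.74) in BMAL1 FLOX and 0.97 (0.59 to 1.19) in CBK, and 0.51 (0.32 to 0.70) against 0.99 (0.78 to 1.2) in the double line, where the ranges did not overlap. The ratio without Nr1d2, of Nr1d1 to Rora, overlapped in both lines, at 1.47 (0.84 to 2.51) against 1.06 (0.47 to 1.81) in CBK and 1.37 (0.73 to 2.07) against 1.42 (0.87 to 1.78) in CBK/CEK. These ratios are not per length and are a description, with no test.

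Within groups, levels of some members varied together. Deviations of log2 CPM from the group mean were compared between the 3 abundant members, apart in the 24 libraries without Cre and the 24 with it (6 relations, permutation within groups, two-sided, Benjamini-Hochberg over the 6). Hearts with more Nr1d1 than their group had less Rora, with Pearson r = -0.62 without Cre (adjusted permutation p = 0.00627) and -0.75 with Cre (adjusted permutation p = 0.00096). Spearman rho was -0.64 and -0.73 (adjusted permutation p = 0.00696 and 0.00228). Without the 2 libraries farthest from the median of Nr1d1 deviations, r was -0.58 and -0.62 (adjusted permutation p = 0.0254 and 0.0173).

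Nr1d1 and Nr1d2 varied together within groups, with r = 0.50 in each set (adjusted permutation p = 0.0261 without Cre and 0.0403 with Cre) and rho of 0.49 and 0.52 (adjusted permutation p = 0.0324 in both). Without the 2 farthest r was 0.39 in the libraries without Cre and did not pass (adjusted permutation p = 0.106). With Cre it was 0.49, close to the value over all 24, and no longer passed (adjusted permutation p = 0.0876). Nr1d2 and Rora gave r = -0.10 and -0.30, with rho of -0.21 and -0.33, neither past the threshold (adjusted permutation p = 0.658 and 0.183). Without the 2 farthest r was -0.16 and -0.32 (adjusted permutation p = 0.507 and 0.204).

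Library composition moved with the same deviations, in measures chosen after the values were seen. For Nr1d1, r with the mitochondrial share of the counts was 0.51 without Cre and 0.55 with Cre, and with the share of records assigned to genes 0.39 and 0.61. For Rora these were -0.35 and -0.44, and -0.48 and -0.57. With the share of ENSMUSG00000119584, r was -0.40 without Cre and -0.40 with Cre for Nr1d1, and 0.50 and 0.28 for Rora. For Nr1d2 it was -0.06 and 0.16, and for Rorb -0.70 and -0.14. With the mitochondrial share r was 0.05 and 0.26 for Nr1d2 and 0.59 and 0.46 for Rorb. With the assigned share it was 0.19 and -0.03 for Nr1d2, and 0.61 and 0.27 for Rorb. With the share of reads matching more than 1 gene, r was -0.26 and -0.55 for Nr1d2 and -0.25 and -0.35 for Nr1d1. For Rora it was 0.20 and 0.39, and for Rorb 0.17 and -0.36. These r values are descriptions over 24 libraries each, and the part of composition in the relations between members was not tested.

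**Figure D3:**
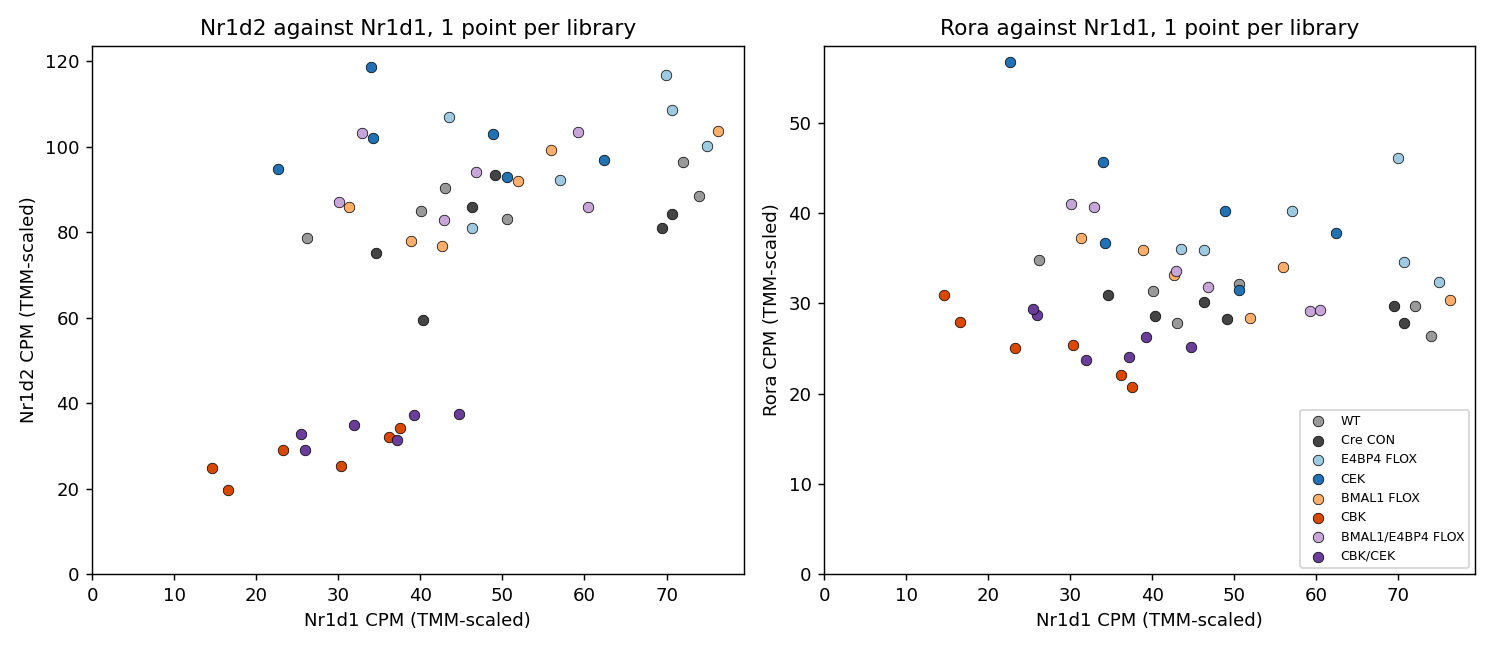
Nr1d2 (left) and Rora (right) against Nr1d1 (x axis), all in CPM on TMM-scaled library sizes, with 1 point per library coloured by group. CBK and CBK/CEK form a separate low band for Nr1d2, at 19.6 to 37.4 CPM, and within groups libraries with more Nr1d1 have less Rora, with r of -0.62 without and -0.75 with Cre.

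Genes whose levels followed each member were named by Pearson r of log2 CPM over all 48 libraries, among 13087 genes. The points share group differences and depth, so these are descriptions. For Nr1d2 the closest were the D-box factor Tef at 0.97 and Mid1ip1 at 0.94. The period gene Per3, Dbp and the immunoglobulin gene Ighg2c followed, each at 0.93. The most opposed were Phc2 and Rcan1 at -0.96 and Cdkn1a, a cell cycle inhibitor, at -0.95. For Nr1d1 the closest were Rgma (0.86), Npc1 (0.82), Scmh1, Fbxo21 and Slc25a42 (each 0.81), and the most opposed Arpc2 (-0.85), Jpt1 (-0.80) and 1110008P14Rik (-0.80). With group means removed, Nr1d1 came closest to the D-box activator Dbp at 0.83, ahead of R3hdm2 and Rgma at 0.77.

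For Rora the closest were Prkce (0.83), Nfia, Helz (each 0.82), Usp2 and Cd47 (each 0.81), with Mapk8ip3, Ap1b1 (each -0.86) and Akap1 (-0.85) opposed. Rorb, with 0 to 90 reads per library, reached lower values: Spryd3 and Pkp2 at 0.72, Gas6 at 0.71, Slc17a7 and Parp3 at 0.70, against Fbp2 at -0.73, Ech1 and Hand2os1 at -0.72. After removal of group means the closest were March7 (0.72), Tef (0.71) and Clasp2 (0.68) to Nr1d2, Zdhhc20 (0.78), Zbtb20 and Gm37274 (each 0.77) to Rora, and Pip4k2c (0.69), Trim11 (0.68) and Brat1 (0.67) to Rorb.

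REV-ERBs and RORs are known to control a list of genes through ROREs, mostly from mouse liver and cell studies. More of these were called higher than lower in CBK hearts, and those called higher were mainly clock genes. Of 16 listed genes 14 were tested, and 6 rose (Cdkn1a, Arntl, Npas2, Nfil3, Cry1 and Clock) and 1 fell (the mitophagy gene Bnip3, -0.51). Among those not called, E2f8, Cx3cr1, Lpl, Ulk1 and Ccl2 had negative values and Insig2 and Apoc3 positive ones. Over all genes 4.05% were called higher and 4.35% lower. The median log2 fold change of the list was 0.54, beside -0.00 over all genes. This median includes the targeted genes Arntl (3.00) and Nfil3 (1.83). Without them 4 of 12 rose and 1 fell, and the middle of the list lay between Ccl2 (-0.03) and Insig2 (0.13). A fit of the line alone called 0 lower.

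Cdkn1a, the p21 gene, was at 6.24 to 19.9 CPM in BMAL1 FLOX and 105 to 230 in CBK, and rose by 3.81 on the log2 scale (edgeR adjusted p = 1.5e-15, SE 0.25). Nfil3, the E4BP4 gene, was at 8.60 to 13.8 CPM against 30.4 to 46.7, and rose by 1.83 (SE 0.15, edgeR adjusted p = 6.48e-14). Npas2, the CLOCK paralog, was at 1.05 to 2.27 CPM against 5.28 to 11.2 and rose by 2.31. None of these 3 pairs of groups overlapped, but the genes were named for their small adjusted p. No share of all genes with such an upward separation is given. In CBK/CEK 5 of 14 RORE genes rose and 1 fell, with a median of 0.23 beside -0.02 over all genes, of which 2.97% were called higher and 2.9% lower. The gene that fell was the targeted Nfil3 (-2.35). Of the 14, edgeR called Nfil3 in CEK, where DESeq2 called 2. In Cre CON edgeR called 0, with 2 at an unadjusted p under 0.05 and 1 called by DESeq2.

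**Figure D4:**
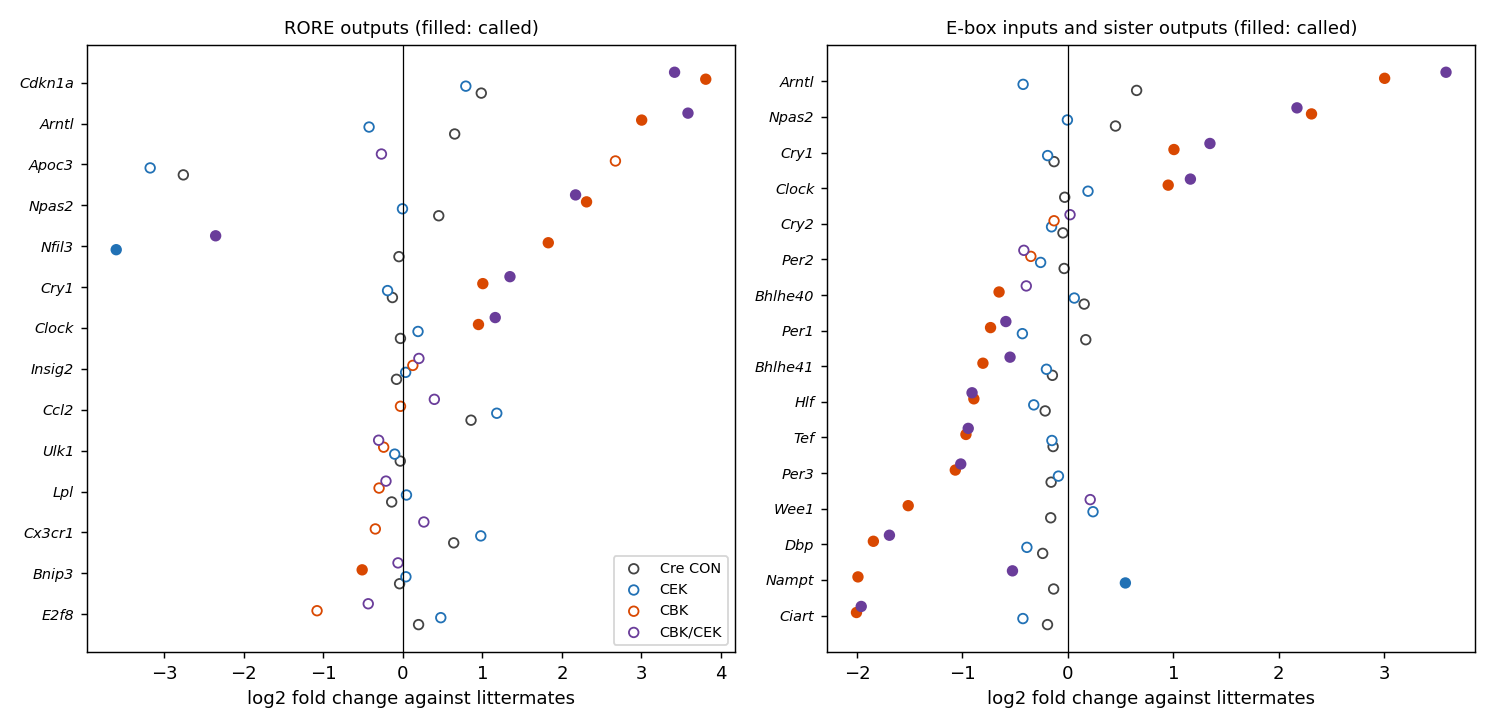
Log2 fold change against littermates (x axis) of the tested RORE genes (left) and of E-box inputs and sister outputs (right), with 1 point per gene and line, ordered by the value in CBK and filled where the edgeR adjusted p was under 0.05. Orange CBK and purple CBK/CEK points lie near each other for most clock genes, such as Tef at -0.97 and -0.94, and apart for Nfil3 at 1.83 and -2.35, Wee1 at -1.51 and 0.21 and Nampt at -1.99 and -0.53.

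The clock genes that feed or flank the receptors through E-boxes split. Of 16 in CBK 4 rose (Arntl, Npas2, Cry1 and Clock, which the RORE list also holds) and 10 fell, beside 4.05% and 4.35% of all genes, with a median of -0.77 beside -0.00. Nampt, the rate-limiting enzyme of NAD salvage, was at 116 to 203 CPM in BMAL1 FLOX and 34.3 to 45.0 in CBK and fell by 1.99 (SE 0.11, edgeR adjusted p = 6.50e-20). Ciart, a repressor of the clock, went from 16.6 to 29.8 CPM down to 4.30 to 8.04 CPM and fell by 2.00, and Wee1, a mitotic kinase gene, fell by 1.51. In CBK/CEK the Wee1 value was 0.21 (edgeR adjusted p = 0.519). The CBK groups of these 3 genes did not overlap, nor did those of Tef, at 166 to 209 against 85 to 108 CPM. These 4 genes were named for their small adjusted p, and 2.15% of all genes showed such a downward separation. The fall of 1.70 in Nr1d2 lay between those of Dbp (1.84) and Wee1, and that of 0.90 in Nr1d1 was near those of Tef (0.97), Hlf (0.89) and Per3 (1.07). In CBK/CEK 4 of 16 rose and 8 fell, beside 2.97% and 2.9%, with a median of -0.47 beside -0.02, and in CEK Nampt alone was called. It was at 168 to 203 CPM in E4BP4 FLOX and 239 to 308 in CEK, and rose by 0.55 (edgeR adjusted p = 0.00643, SE 0.11).

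The D-box factors, whose activators compete with E4BP4 on shared promoters, showed Dbp, Tef and Hlf lower and Nfil3 higher in CBK and all 4 lower in CBK/CEK. Over all genes 4.35% were called lower and 4.05% higher in CBK, and 2.9% lower in CBK/CEK. Dbp, Tef and Hlf are also counted in the E-box list above, and Nfil3 is itself a floxed gene in CBK/CEK. Dbp was at 73.8 to 123 CPM in BMAL1/E4BP4 FLOX and 27.4 to 38.0 in CBK/CEK, and fell by 1.69 (SE 0.18, edgeR adjusted p = 9.72e-10). Among the nuclear receptor genes Thra, Thrb, Nr1h2, Nr1h3, Ppara and Ppard, 1 rose in each of these lines, and that was Thra.

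Thra, the thyroid hormone receptor α gene, lies tail to tail with Nr1d1 and shares 263 bp of exon with it on the opposite strand, 8.55% of the Nr1d1 exon length (chr11:98767932-98775333 on GRCm38, minus strand). Thra stood at 64.5 to 94.4 CPM in BMAL1 FLOX and 85.5 to 131 in CBK, overlapping, and rose by 0.44 (SE 0.08, edgeR adjusted p = 8.41e-05). In CBK/CEK it stood at 102 to 114 CPM against 66.9 to 79.1 and rose by 0.52 (SE 0.08, edgeR adjusted p = 5.55e-06). These ranges did not overlap, with no share of all genes given for such an upward separation. Whether counting used strand is not given in the sources used here, so reads of the shared stretch cannot be assigned to either gene. Reads that matched more than 1 gene made up 3.98% to 7.41% of the records.

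**Figure D5:**
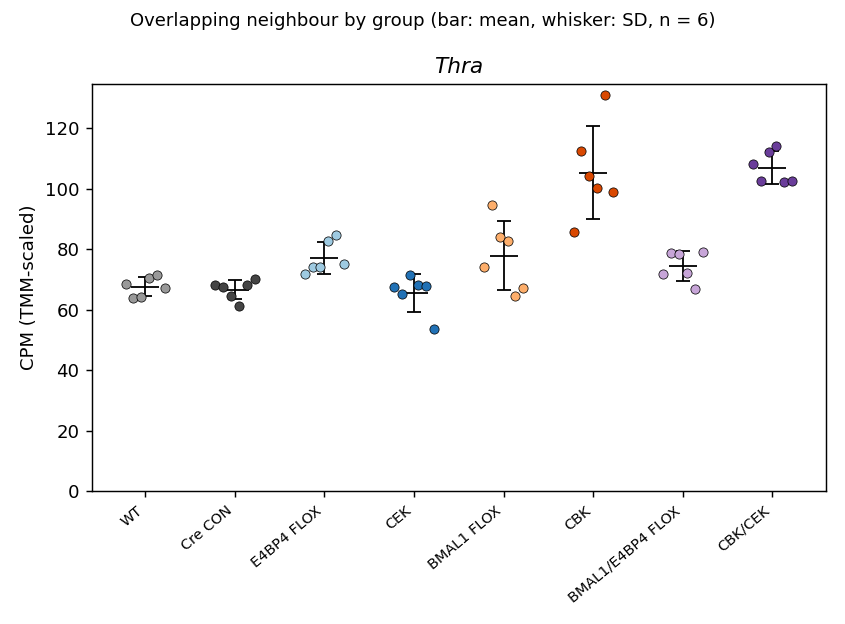
Level (y axis, CPM on TMM-scaled library sizes) of Thra in each of 48 libraries (points) by group (x axis), with the mean as a bar and the SD as a whisker. Thra lies at 85.5 to 131 CPM in CBK and 102 to 114 CPM in CBK/CEK, higher than in their littermates, with overlap in the CBK line.

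Few genes for protein partners and ligands of the receptors were called, in lists of 6 to 12 genes too short to set apart from the 8.4% of all genes called in CBK and 5.87% in CBK/CEK. At an unadjusted p under 0.05 there were 3115 of the 16623 genes in CBK and 2674 in CBK/CEK. Of 6 NCoR-HDAC3 corepressor genes, 0 were called in CBK by edgeR or DESeq2, with 2 at an unadjusted p under 0.05. In CBK/CEK the corepressor subunit gene Tbl1x, at 31.7 to 42.9 CPM without Cre and 42.6 to 56.3 with it, rose by 0.39 (edgeR adjusted p = 0.00472, SE 0.10). Of 8 genes for ROR coactivators and 8 for REV-ERB protein turnover, edgeR and DESeq2 called 0 in each of the 4 lines. At an unadjusted p under 0.05 there were 2 coactivator genes in CBK and 4 in CBK/CEK, and 1 turnover gene in each of CBK, CEK and CBK/CEK. Heme is the ligand of REV-ERBs, and of 12 genes of its synthesis and breakdown the synthesis enzyme Alad fell in CBK/CEK by 0.41 (edgeR adjusted p = 0.0357, SE 0.12). In CBK 0 of these were called by either tool, with 1 at an unadjusted p under 0.05. Of 9 tested genes for sterols that bind RORs edgeR called 0 in each line, with 2 in CBK and 1 in CBK/CEK at an unadjusted p under 0.05, and DESeq2 called 1, in CBK. Without the 5 libraries of outlying composition, 1 coactivator gene was called lower in CBK, and 1 heme gene and 1 sterol gene higher.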

How the data were processed

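RNA-seq libraries of both ventricles from 48 mice were analysed. The authors deposited raw counts of reads per gene, and the submitters' processing notes name HTSeq 0.11.1, STAR 2.7.9a, bcl2fastq 2.18.0.12 and build GRCm39. Neither annotation release nor strandedness was given in the sources used here. Names, exon lengths and neighbours came from GENCODE M21 (GRCm38), which matched 52093 of 53700 identifiers (97.0%). The 5 summary lines of the counter held 26.9% to 47.0% of records and were left out.

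In R 4.3.3, edgeR 4.0.16 (TMM, robust quasi-likelihood test) fitted 8 group means, with 40 residual degrees of freedom. The Benjamini-Hochberg adjustment ran over the 16623 genes kept by filterByExpr, and genes were called under 0.05. The 95% intervals are normal, from the SE. CPM are counts scaled to TMM-effective library size, and log2 CPM used a prior count of 1. Libraries are biological replicates per the labels, so the tests reflect spread between animals. Correlations used 100000 permutations. Motif shares refer to RefSeq promoter windows. Steps were tested on simulated data.

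The members, lists and tests were chosen with earlier results of these data known. Named were the members, Thra, Arntl, Nfil3, Dbp and Myh6, up to 4 called genes of smallest adjusted p per list and line, and the genes most alike or opposed to each member. Of the listed genes 2 are not reported here and were left out of the list counts and medians. Other genes were named after their values were seen, as were the counts of list genes without the 5 libraries of outlying composition, without WT replicate 1 and per line alone, and the fit without CEK replicate 6 as well. Other settings were RLE normalisation, DESeq2 1.42.0, no filter or a filter of 1 CPM in 6 libraries, removal of mitochondrial transcripts and ENSMUSG00000119584, each line alone, the replicate number as a block, and omission of libraries. No paired design is stated in the labels.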

Additional observations from a re-analysis of the deposited data

Results flagged for a closer look

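In all, 5 differences between the effects of 2 lines passed the test of the difference itself (edgeR, adjusted over all genes). For Nr1d2 the log2 fold change was lower in CBK than in Cre CON by a difference of -1.57, and lower in CBK/CEK than in Cre CON by -1.33. Against CEK, the Nr1d2 differences were -1.70 for CBK and -1.46 for CBK/CEK. For Rora the difference between CBK and CEK was -0.53. These 5 contrasts reuse libraries. No single library stood far from the rest of its group in any of the 32 combinations of member and group, where chance alone gives about 1 in 20.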

How the results depend on the processing

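No called result changed sign under any setting tried. The Nr1d2 calls in CBK (-1.71 to -1.66) and CBK/CEK (-1.48 to -1.45) held under all 11 settings and all single omissions (-1.77 to -1.62 and -1.49 to -1.42). Calls lost, for causes that were not tested, were Nr1d1 in CBK without the 5 libraries of outlying composition or with CEK replicate 6 omitted too (-0.70 in both), Rora in CBK with the line alone (-0.38), and Rorb in CBK with no filter (1.33), the line alone (1.32) or the replicate block (1.41). The Rora difference between CBK and CEK was lost with RLE (-0.51), no filter (-0.53), the block (-0.52) without the 5 libraries (-0.40) and without the 6 (-0.41), and that between CBK/CEK and CEK passed with DESeq2 only (-0.52, adjusted p = 0.0451). The correlation of Nr1d1 with Nr1d2 no longer passed without the 2 farthest libraries (0.39 and 0.49) and, with Cre, under RLE (0.48). Genes called in CBK numbered 1396, and 871 with the line alone. In CEK they numbered 51, against 17 with no filter, 142 with DESeq2, 12 without the 6 libraries, and 25 with the line alone or the block. In Cre CON they numbered 3, against 19 with DESeq2, 6 without the 5 libraries, 7 without the 6 and 10 with the line alone. Single omissions gave -1.03 to -0.74 for Nr1d1, -0.43 to -0.34 for Rora and 1.11 to 1.62 for Rorb in CBK, -0.42 to -0.32 for Rora in CBK/CEK, 15 to 127 genes in CEK and 1 to 16 in Cre CON (16 without Cre CON replicate 1). Replicate numbers were not taken to pair the animals. Deviations of same-numbered libraries correlated at -0.16 to 0.23, over 0.1 in 5 of 24 pairs. The same-numbered littermate library was the best match in 7 of 24. Such correlations cannot exclude a pairing, and none is stated in the labels. Rorb had 0 to 90 reads per library, and its Cre CON comparison had no adjusted p from DESeq2.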
